A study of Mus musculus with 5 samples.

Results

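The genes described here encode collagens, other products of fibroblasts, and proteins of blood vessel endothelium. A list of 38 genes was drawn up by name, and its members were chosen by earlier results of these same arrays as well as by function, so their differences are a description without a test. Of the 38, 37 were measured among the 19938 genes with a probe set naming 1 gene. They were 12 collagen chains, 13 genes of fibroblasts and matrix, and 12 vessel genes. Fbn1, a fibrillin gene, had no such probe set in the annotation used and is not analysed here.

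RNA came from the gut of male ddY mice, an outbred stock, aged 5 weeks. Affymetrix Mouse Gene 1.0 ST arrays were used, 1 for each of 5 groups. Each group received a pair of oral doses 0.5 hours apart, and the tissue was collected another 4 hours later. GA+GA mice received gum arabic (the control) both times, LG21+GA mice the bacterium Lactobacillus gasseri OLL2716 (LG21) and then gum arabic, and GA+Asp mice gum arabic and then aspirin. Tep+Asp mice received teprenone, an anti-ulcer drug, and LG21+Asp mice LG21, each followed by aspirin. The labels name no genotype and call all the mice healthy, and they do not say whether RNA of several animals was pooled on an array.

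Values are log2 expression values, so a difference of 1 is 2-fold. With 1 array a group there is no spread between animals to set a difference against and no p-value. The precision is limited by the number of arrays. The arrays correlated with r between 0.992 and 0.997 over 35557 probe sets and had medians between 6.94 and 6.98. The label gut was checked against 16 genes of gastric epithelium, which had a median level of 13.17 to 13.20 on the arrays, on a scale ending at 13.87. Levels this near the top show that these transcripts were abundant, not whether their amount was equal between arrays. All 37 members had a mean above 7.41, the median of all genes, and Xist, which male cells do not express, stood at 4.91 in the control.

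Collagens are triple helices secreted mainly by fibroblasts and related mesenchymal cells. Fibrillar types give the submucosa its strength, type IV forms the sheet of basement membranes, and type VI forms beaded filaments close to cells. Small leucine-rich proteoglycans and glycoproteins such as fibronectin organise these fibres. Blood vessels of the gut wall run through this matrix, lined by endothelial cells that carry receptors for vascular endothelial growth factors and angiopoietins.

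Across the list the Tep+Asp array was the high one. In 35 of the 37 genes its value was above those of all the others, where 14.3% of all genes and 17.2% of the genes above the median level were highest in it. The exceptions were Thy1, a surface glycoprotein of fibroblasts, T cells and neurons, and Vwf, the clotting factor carried by endothelium. The differences were small. Against GA+Asp the median over the 37 genes was 0.13, or 1.09-fold, against 0.00 for all genes. In each of the 10 pairs of arrays 0 of the 37 were 2-fold apart. Of all 19938 genes 20 to 106 were, depending on the pair, so a list this short would hold few or none. In bulk tissue, more cells of a type and more RNA per cell cannot be told apart.

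The 3 groups of genes did not stand equally far out. Tep+Asp minus GA+Asp had a median of 0.17 for the collagens, 0.16 for fibroblast and matrix genes and 0.07 for vessel genes. Against LG21+Asp the medians were 0.11, 0.13 and 0.09, against GA+GA 0.16, 0.16 and 0.13, and against LG21+GA 0.12, 0.14 and 0.08 in the same order. The vessel group thus had the smallest median in each of these 4 comparisons, which share the Tep+Asp array. With 1 array a group the difference between the groups of genes was not tested.

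**Figure D1:**
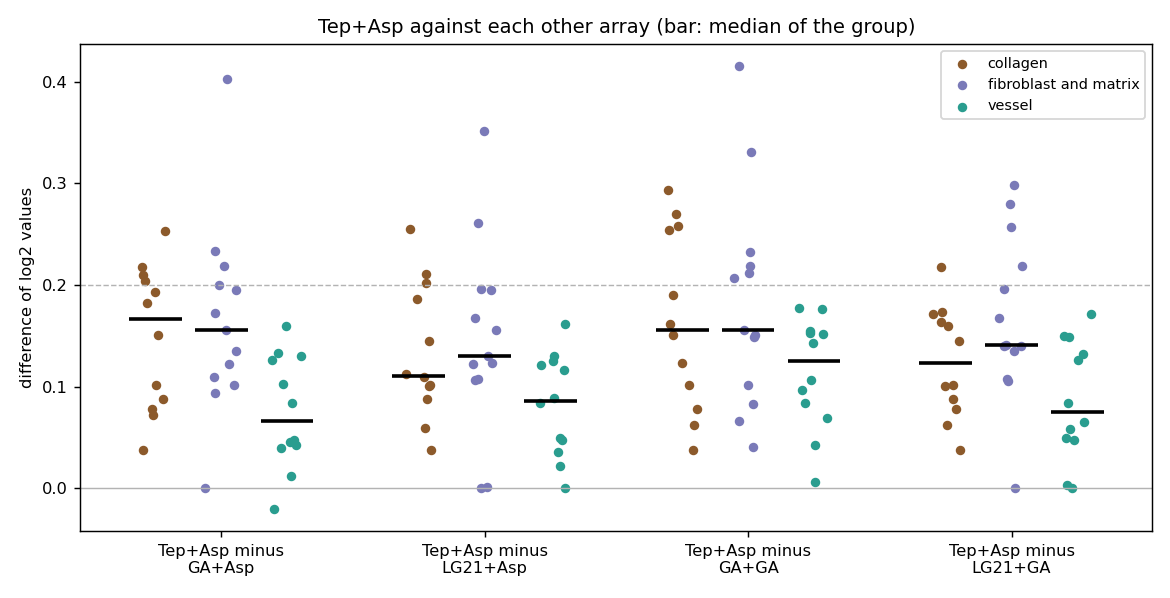
Difference of log2 values between Tep+Asp and each other array for every measured gene (points), by group of genes; black bars are group medians, and the dashed line marks 0.2. The vessel genes stay below the dashed line in all 4 comparisons, while Pdgfra reaches 0.40 against GA+Asp and Timp3 0.42 against GA+GA.

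A difference of 0.2 on the log2 scale was used for counting. Against GA+Asp 8 of the 37 genes were at least this much higher in Tep+Asp, where 2.79% of all genes were. Against LG21+Asp there were 5, beside 2.06% of all genes, against GA+GA 10, beside 2.34%, and against LG21+GA 5, beside 2.15%. The number lower by 0.2 was 0 in each. Since the list was drawn up with the position of Tep+Asp known, nothing is read from these shares.

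Promoter sequence is shown for the gene of each group with the largest difference between Tep+Asp and GA+Asp that the RefSeq promoter table holds. These are Col3a1 for the collagens, Pdgfra for the fibroblast genes and Emcn for the vessel genes. Each run is the 250 bases before the annotated start on the plus strand of build GRCm38.p6, at chr1:45311288-45311537 for Col3a1, chr5:75152001-75152250 for Pdgfra and chr3:137340828-137341077 for Emcn. Capitals mark exact matches on either strand to 4 motifs. They are TATAAA for the TATA box, CCAAT for the box of that name, GGGCGG for the GC box, and AGGAAG for a core of ETS factor sites.
Col3a1: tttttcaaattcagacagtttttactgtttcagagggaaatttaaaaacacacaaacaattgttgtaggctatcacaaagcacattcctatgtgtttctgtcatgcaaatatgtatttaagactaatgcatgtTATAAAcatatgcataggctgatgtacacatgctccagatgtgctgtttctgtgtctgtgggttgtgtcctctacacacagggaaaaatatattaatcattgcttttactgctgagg
Pdgfra: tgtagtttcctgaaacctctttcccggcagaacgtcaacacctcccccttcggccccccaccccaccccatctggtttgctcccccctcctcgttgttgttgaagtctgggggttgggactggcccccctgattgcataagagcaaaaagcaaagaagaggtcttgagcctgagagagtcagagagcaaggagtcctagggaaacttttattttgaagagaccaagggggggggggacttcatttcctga
Emcn: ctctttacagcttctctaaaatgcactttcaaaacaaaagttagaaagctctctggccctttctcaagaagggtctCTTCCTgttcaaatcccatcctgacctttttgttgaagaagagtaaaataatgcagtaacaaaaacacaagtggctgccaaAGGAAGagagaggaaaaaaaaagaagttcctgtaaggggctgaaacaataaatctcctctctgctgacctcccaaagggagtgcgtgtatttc

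The Col3a1 window held 1 match, TATAAA beginning 117 bases before the start. The Emcn window held AGGAAG at 93 bases on its own strand and at 174 bases on the other, and the Pdgfra window held no match to these letters. Of the measured members 22 had an entry, with 24 promoters in all. AGGAAG was found in 14 of the 24 against 29.5% of the 32851 promoters in the table, GGGCGG in 9 against 32.7%, CCAAT in 5 against 33.8% and TATAAA in 4 against 12.4%. By group, AGGAAG was in 5 of 10 collagen, 4 of 7 fibroblast and matrix, and 5 of 7 vessel promoters. These are matches of letters and not binding sites.

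Collagen genes were higher in Tep+Asp than in every other array, 12 of 12. The largest difference from GA+Asp was that of Col3a1, the single chain of type III collagen, which accompanies type I in loose and distensible tissue. It stood at 9.60 in GA+GA, 9.64 in LG21+GA, 9.61 in GA+Asp, 9.86 in Tep+Asp and 9.60 in LG21+Asp. The other 4 arrays lay within 0.04 of each other and Tep+Asp 0.22 above the next of them, a 1.19-fold difference from GA+Asp. Against GA+GA the largest was that of Col1a1, 0.29, where Col3a1 differed by 0.25.

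Type I collagen, the main fibrillar collagen, is built from the products of Col1a1 and Col1a2. Col1a1 stood at 9.97 in GA+GA, 10.09 in LG21+GA, 10.04 in GA+Asp, 10.26 in Tep+Asp and 10.05 in LG21+Asp. Tep+Asp was above the rest by 0.17, and GA+GA was the low array of the others. The partner chain Col1a2 differed much the same way, by 0.18 from GA+Asp and 0.26 from GA+GA. Type V collagen, which is built into the same fibrils and limits their width, differed less evenly between its chains. Col5a2 differed by 0.19 from GA+Asp. Col5a1 stood at 7.87 in GA+GA and in LG21+GA, 7.86 in GA+Asp, 7.93 in Tep+Asp and 7.88 in LG21+Asp, a difference of 0.07.

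The type IV chains Col4a1 and Col4a2 form the common network of basement membranes, including those of capillaries. Col4a2 stood at 8.90 in GA+GA, 8.88 in LG21+GA, 8.84 in GA+Asp, 9.05 in Tep+Asp and 8.95 in LG21+Asp. Tep+Asp was 0.21 above GA+Asp, the lowest array, and 0.11 above LG21+Asp, the next highest. For Col4a1 Tep+Asp was 0.15 above GA+Asp and 0.10 above LG21+Asp and LG21+GA, which were level at 8.89. The lowest array for Col4a1 was GA+GA, at 8.80.

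The type VI chains are joined in a single molecule but differed unequally. Col6a1 stood at 9.38 in GA+GA, 9.49 in LG21+GA, 9.44 in GA+Asp, 9.65 in Tep+Asp and 9.46 in LG21+Asp. Col6a3 stood at 7.95 on all arrays but Tep+Asp, where it was 7.99. Tep+Asp minus GA+Asp was thus 0.20 for Col6a1, 0.09 for Col6a2 and 0.04 for Col6a3. Their mean levels fell in the same order, 9.48, 9.06 and 7.96. Between mean level and this difference, Pearson r was 0.61 for the collagens, 0.06 for fibroblast and matrix genes and 0.52 for vessel genes. Whether the level of a probe set accounts for the unequal differences was not tested. Col14a1, a collagen attached to the surface of fibrils, differed by 0.08, and Col15a1, found next to basement membranes of vessels and muscle, by 0.10. By class, the median difference was 0.19 for the 5 fibrillar chains, 0.18 for the 2 type IV chains and 0.09 for the 3 type VI chains.

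**Figure D2:**
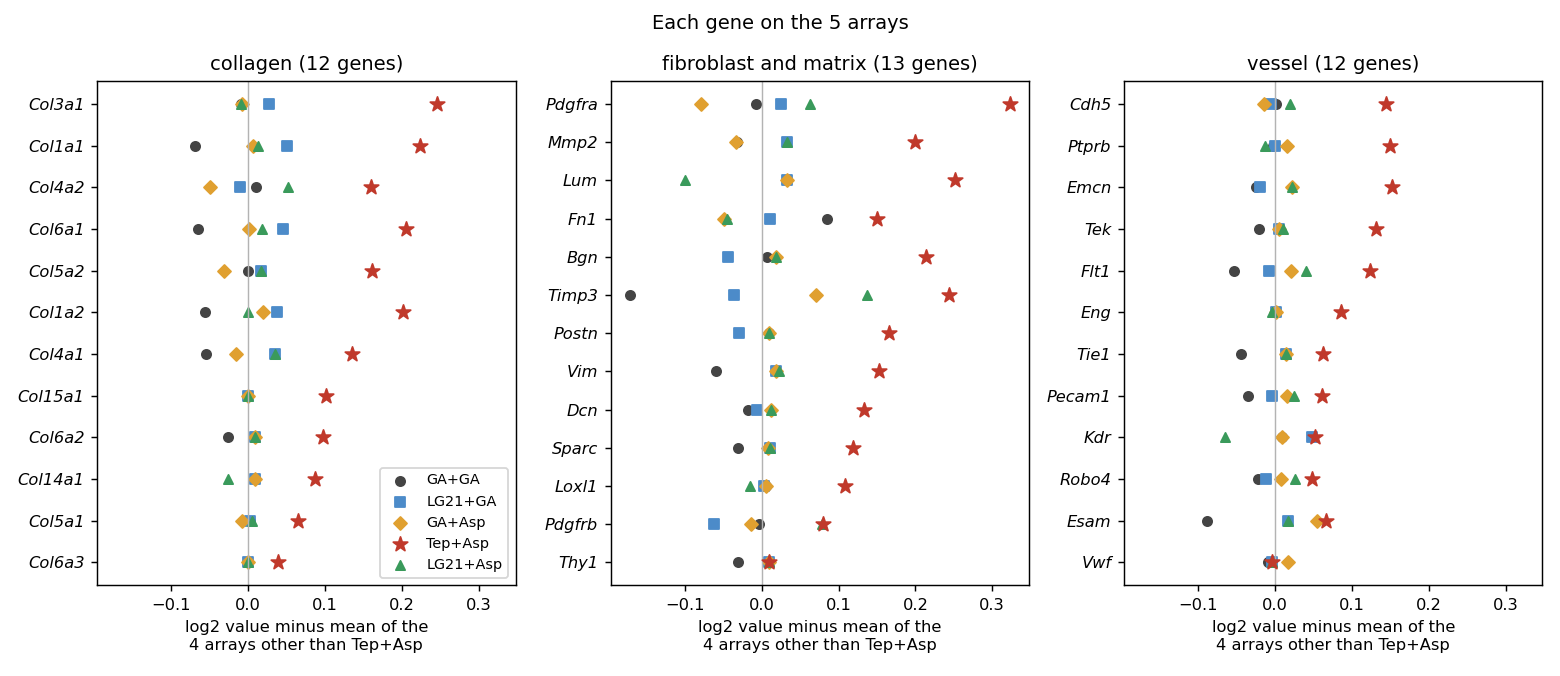
Log2 value of each of the 37 measured genes on the 5 arrays, each gene centred on its mean over the 4 arrays other than Tep+Asp; genes are ordered by Tep+Asp minus GA+Asp, the largest at the top. The Tep+Asp star lies to the right of the other 4 symbols in all 12 collagen genes and falls among them for Thy1 and Vwf.

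Among the fibroblast and matrix genes 12 of 13 were highest in Tep+Asp, and the platelet-derived growth factor receptors differed unequally. Pdgfra, the receptor that marks most gut fibroblasts, stood at 9.28 in GA+GA, 9.31 in LG21+GA, 9.21 in GA+Asp, 9.61 in Tep+Asp and 9.35 in LG21+Asp. Tep+Asp was 0.40 above GA+Asp, a 1.32-fold difference, and 0.26 above LG21+Asp, the next highest. Pdgfrb, the related receptor of pericytes and fibroblasts, stood at 9.30 in GA+GA, 9.24 in LG21+GA, 9.29 in GA+Asp and 9.38 in both Tep+Asp and LG21+Asp. The last 2 arrays could not be separated, their values being 0.001 apart, and LG21+Asp was not below Tep+Asp under cyclic loess or quantile normalization.

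Mmp2, a gelatinase made by fibroblasts, stood at 9.81 in GA+GA, 9.88 in LG21+GA, 9.81 in GA+Asp, 10.05 in Tep+Asp and 9.88 in LG21+Asp, with Tep+Asp 0.17 above the next. Lum, the proteoglycan lumican that spaces collagen fibrils, stood at 7.90 in GA+GA, LG21+GA and GA+Asp, 8.11 in Tep+Asp and 7.76 in LG21+Asp. For Lum, Tep+Asp lay above and LG21+Asp below the level that the other 3 arrays shared, and they were 0.35 apart.

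Fn1, encoding fibronectin, was an exception in that the control came close to Tep+Asp. It stood at 11.34 in GA+GA, 11.27 in LG21+GA, 11.21 in GA+Asp, 11.41 in Tep+Asp and 11.21 in LG21+Asp. Its gap of 0.07 above the control was smaller than the range of 0.13 among the other 4 arrays. Thy1 stood at 7.57 in GA+GA and 7.61 on the other 4 arrays, so Tep+Asp was not apart.

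Timp3, a matrix-bound inhibitor of metalloproteinases, had the widest range of the list among the arrays other than Tep+Asp, 0.31. It stood at 10.02 in GA+GA, 10.15 in LG21+GA, 10.26 in GA+Asp, 10.43 in Tep+Asp and 10.33 in LG21+Asp. The 3 aspirin arrays were above the 2 without aspirin. It was the single member at least 0.2 apart in a pair without Tep+Asp, namely GA+Asp against GA+GA (0.24, beside 2.02% of all genes higher by 0.2) and LG21+Asp against GA+GA (0.31, beside 2.33%). This pattern was picked out after the values were seen.

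The remaining genes of the group differed between Tep+Asp and GA+Asp by 0.10 to 0.19. Bgn, the proteoglycan biglycan, differed by 0.19 and Postn, the matrix protein periostin, by 0.16. Vim, the intermediate filament of mesenchymal cells, differed by 0.13 and Dcn, the proteoglycan decorin, by 0.12. Sparc, a collagen-binding glycoprotein, differed by 0.11 and Loxl1, an enzyme that cross-links elastin, by 0.10. Sparc and Dcn were among the most abundant transcripts, with means of 12.44 and 11.89 over the arrays, and the probe sets of such genes lie near the upper end of the scale.

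Vessel genes were highest in Tep+Asp in 11 of 12, and in these the gap to the next array ran from 0.003 to 0.13. Cdh5, the cadherin of endothelial junctions, stood at 9.22 in GA+GA and LG21+GA, 9.21 in GA+Asp, 9.37 in Tep+Asp and 9.24 in LG21+Asp. Ptprb, an endothelial phosphatase that acts on the angiopoietin receptor, stood at 9.27 in GA+GA and LG21+GA, 9.29 in GA+Asp, 9.42 in Tep+Asp and 9.26 in LG21+Asp. Both genes had 4 arrays close together and Tep+Asp 0.13 above them.

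Emcn, the endothelial sialoprotein endomucin, stood at 9.65 in GA+GA and LG21+GA, 9.69 in GA+Asp and LG21+Asp, and 9.82 in Tep+Asp. Tek, the angiopoietin receptor Tie2, stood at 7.999 in GA+GA, 8.02 in LG21+GA and GA+Asp, 8.15 in Tep+Asp and 8.03 in LG21+Asp. Its relative Tie1 differed less from GA+Asp, by 0.05 against 0.13 for Tek. The same held for the receptors of vascular endothelial growth factor, of which Flt1 differed by 0.10 and Kdr by 0.04.

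Kdr, the main signalling receptor of that family, stood at 8.70 in GA+GA, 8.74 in LG21+GA, 8.70 in GA+Asp, 8.74 in Tep+Asp and 8.63 in LG21+Asp. Tep+Asp and LG21+GA were 0.003 apart, and LG21+Asp was the low array. Esam, an adhesion molecule of endothelial junctions, stood at 8.82 in GA+GA, 8.97 in GA+Asp, 8.98 in Tep+Asp and 8.93 in both LG21 arrays. For Esam the control was the array apart. Vwf stood at 8.01 in GA+GA, 8.04 in GA+Asp and 8.02 on the other 3 arrays, a range of 0.03 with GA+Asp on top.

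Pecam1, the platelet-endothelial adhesion molecule, differed by 0.05 between Tep+Asp and GA+Asp, and Robo4, a guidance receptor of endothelium, by 0.04. Eng, a co-receptor of transforming growth factor beta on endothelium, differed by 0.08. For Pecam1, Robo4, Tie1 and Flt1 the gap to the next array was no larger than the range of the others.

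Each gene's gap to the next array was also set against the range of the other 4 arrays. The gap was larger than that range in 12 of 12 collagen genes, 9 of 13 fibroblast and matrix genes and 5 of 12 vessel genes. In all it was larger in 26 of 37, beside 5.79% of all genes. The list was chosen with the position of Tep+Asp known, so nothing is read from these counts. The difference between the groups of genes was not tested. The median gap was 0.11 for the collagens, 0.12 for fibroblast and matrix genes and 0.07 for vessel genes, and the median range was 0.04, 0.07 and 0.05. Exactly equal values among the other 4 arrays occurred for 21 of the 37 genes and for 66.5% of all genes, so a range near 0 includes ties in the deposited values.

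**Figure D3:**
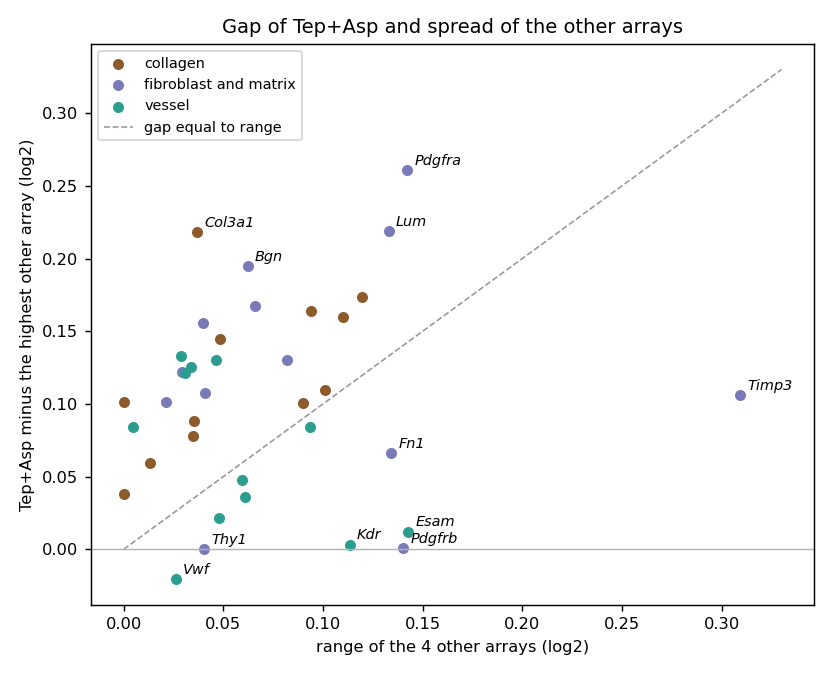
For each of the 37 genes, the range of the 4 arrays other than Tep+Asp (x axis, log2) and the difference between Tep+Asp and the highest of them (y axis, log2); the dashed line marks equal values. All 12 collagen points lie above the line, and Timp3, with a range of 0.31, lies farthest to the right.

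Pairs without Tep+Asp gave medians close to 0. Aspirin alone, GA+Asp minus GA+GA, gave medians of 0.00 for the collagens, 0.00 for fibroblast and matrix genes and 0.03 for vessel genes. LG21 alone gave 0.03, 0.01 and 0.02, and LG21 before aspirin, LG21+Asp minus GA+Asp, gave 0.00 for all 3. Fn1 was 0.13 lower in GA+Asp than in the control, and Esam 0.14 higher. Pdgfra was 0.14 higher and Lum 0.13 lower in LG21+Asp than in GA+Asp.

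The control had the strictly lowest value in 18 of the 37 genes, beside 20.6% of all genes and 26.3% of those above the median level. It was lowest in 5 of 12 collagen, 5 of 13 fibroblast and matrix, and 8 of 12 vessel genes. On the linear scale the summed level of the vessel genes ran from 5477 in GA+GA to 5966 in Tep+Asp, with 5566 to 5616 on the other 3 arrays. The summed collagen level was 7164 in Tep+Asp and 6224 to 6480 elsewhere, and that of fibroblast and matrix genes 25232 and 22362 to 22870.

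Some members lie side by side among the protein-coding genes of the RefSeq table. Tep+Asp minus GA+Asp was 0.25 for Col3a1 and 0.19 for its neighbour Col5a2, and 0.15 for Col4a1 and 0.21 for Col4a2. It was 0.12 for Dcn and 0.22 for Lum, whose mean levels were 11.89 and 7.91, and 0.09 for Col6a2 and 0.20 for Col6a1. All 8 genes were highest in Tep+Asp, as were 35 of all 37 members, beside 14.3% of all genes. The list was drawn up with that position known, so nothing is read from the neighbours sharing it.

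Other genes of matrix and vessels were taken from lists written by function, but with earlier results of these arrays known. Their counts are therefore a description and not independent support. Of all genes 14.3% were highest in Tep+Asp, and of the genes above the median level 17.2%. Of 29 other matrix proteins and small leucine-rich proteoglycans 24 were strictly highest in Tep+Asp, with a median difference of 0.12 from GA+Asp. Thbs1, the adhesive glycoprotein thrombospondin, stood at 9.78 in Tep+Asp and 9.50 in GA+Asp, a difference of 0.28. Vcan, the proteoglycan versican, differed by 0.32 and Mfap5, a component of elastic microfibrils, by 0.17. The basement membrane list had 8 of 13 highest, among them the laminin chains Lama2 (0.20 above GA+Asp) and Lamc1 (0.16) and Nid1 (0.21), which links laminin to type IV collagen. Over the 13 the median difference was 0.09 from GA+Asp and 0.02 from LG21+Asp.

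Genes that process collagen were less uniform, with 14 of 25 highest in Tep+Asp, beside 14.3% of all genes. Their median difference from GA+Asp was 0.02. Tgm2, a cross-linking transglutaminase, stood at 9.50 in Tep+Asp and 8.99 to 9.15 elsewhere. Lox, the enzyme that cross-links collagen, differed by 0.22 and P3h2, a prolyl hydroxylase, by 0.27. Of 22 other collagen chains 6 were highest in Tep+Asp, and 11 of the 22 had a mean above the median of all genes. Against GA+Asp 19 of the 22 lay above 0, with a median of 0.07, but against LG21+Asp 6 lay above and 11 below, with a median of -0.0044. Their summed level was 3977 in LG21+Asp and 3931 in Tep+Asp. Col8a1, a chain of vessel wall collagen, differed by 0.20 from GA+Asp and 0.15 from LG21+Asp, Col12a1 by 0.10 and 0.09, and Col4a5 by 0.05 from each.

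Matrix proteases and their inhibitors had 9 of 17 highest in Tep+Asp, beside 14.3% of all genes. Among them were Timp2 (0.12), Mmp19 (0.13) and Mmp11 (0.10), and 6 of the 17 had a mean above the median of all genes. The list of transforming growth factor beta and platelet-derived growth factor signalling had 10 of 17 highest. Its median difference from GA+Asp was 0.02. Of the 17, 0 were 0.2 higher, beside 2.79% of all genes, which is few in a list this short. Ccn2, a matricellular protein induced by that pathway, differed by 0.18, the co-receptor Tgfbr3 by 0.17 and Tgfbi by 0.12. Of 30 other fibroblast markers 14 were highest. Over the 30 the median difference was 0.05 from GA+Asp and 0.01 from LG21+Asp. Against LG21+Asp 16 lay above 0 and 9 below. The markers named for the largest differences were the transcription factor Foxf2 (0.20) and the ligands Bmp4 (0.15) and Wnt5a (0.16).

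On the vessel side, of 33 other endothelial genes 14 were highest in Tep+Asp, beside 14.3% of all genes. Their median difference from GA+Asp was 0.03. A difference of 0.2 or more was reached by 0 of the 33, beside 2.79% of all genes, which is few in a list this short. Podxl, a sialomucin, differed by 0.19, Cd93 by 0.18 and Calcrl, an adrenomedullin receptor, by 0.16. Growth factor and Notch ligands and receptors had 8 of 20 highest, among them the co-receptors Nrp1 (0.15) and Nrp2 (0.12) and the ligand Vegfd (0.13). Over the 20 the median difference was 0.02 from GA+Asp and 0.00 from LG21+Asp. Against LG21+Asp 9 lay above 0 and 8 below. Lymphatic markers had 2 of 6 highest, where Lyve1 differed by 0.08 and Reln and Pdpn by 0.00. Pericyte genes, with 6 of 9 highest, included Abcc9 (0.28), a potassium channel subunit, Rgs5 (0.16) and the adhesion molecule Mcam (0.15).

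The smooth muscle, macrophage and squamous epithelium lists also had many genes highest in Tep+Asp. Of all genes 14.3% were highest in it, and of those above the median level 17.2%. Other lists, given below, had few. Of 14 smooth muscle genes 11 were highest in that array, with a summed level of 27296 against 25776 to 26277 elsewhere, and Myh11, the smooth muscle myosin, differed by 0.22 and Cald1 by 0.15 from GA+Asp. Of 16 macrophage and dendritic cell genes 9 were highest, with a summed level of 4677 against 4360 to 4491. Their median difference was 0.05 from GA+Asp and 0.02 from both GA+GA and LG21+GA. Mrc1, the mannose receptor, differed by 0.33 from GA+Asp and Lyz2 by 0.19. Of 18 squamous epithelium genes 12 were highest, with 15583 against 8653 to 12247. Krtdap differed by 0.92 and Lor by 0.79 from GA+Asp. Krt1, named outside the rule for naming after its values were seen, differed by 1.12. All 14 smooth muscle genes, 11 of the 16 macrophage genes and 8 of the 18 squamous genes had a mean above the median of all genes. The part of these cell types in the result for matrix and vessel genes was not tested.

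In other lists few or no genes had their highest value in Tep+Asp. It was strictly highest in 0 of 13 enteric neuron and glia, 0 of 15 proliferation and 0 of 15 hepatocyte genes. The same held for 0 of 7 mesothelium and 0 of 4 erythrocyte and blood genes. It was highest in 1 of 15 skeletal muscle, 1 of 11 mast cell, 1 of 10 lymphocyte and 2 of 9 adipocyte genes. Of all genes 14.3% were highest in Tep+Asp. At that share lists this short hold few such genes, so nothing is read from these counts. In gastric epithelium Tep+Asp was highest in 5 of 16, or 31.2%, with a median difference of 0.00 from GA+Asp. The summed level of the skeletal muscle list was 1892 in Tep+Asp, 2364 in GA+Asp and 1902 to 1914 on the other arrays. That of the hepatocyte list was 11819 in Tep+Asp, 10335 in GA+Asp, 16298 in LG21+Asp, 20934 in LG21+GA and 26284 in the control. Of the 15 skeletal muscle genes 4 and of the 15 hepatocyte genes 14 had a mean above the median of all genes.

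**Figure D4:**
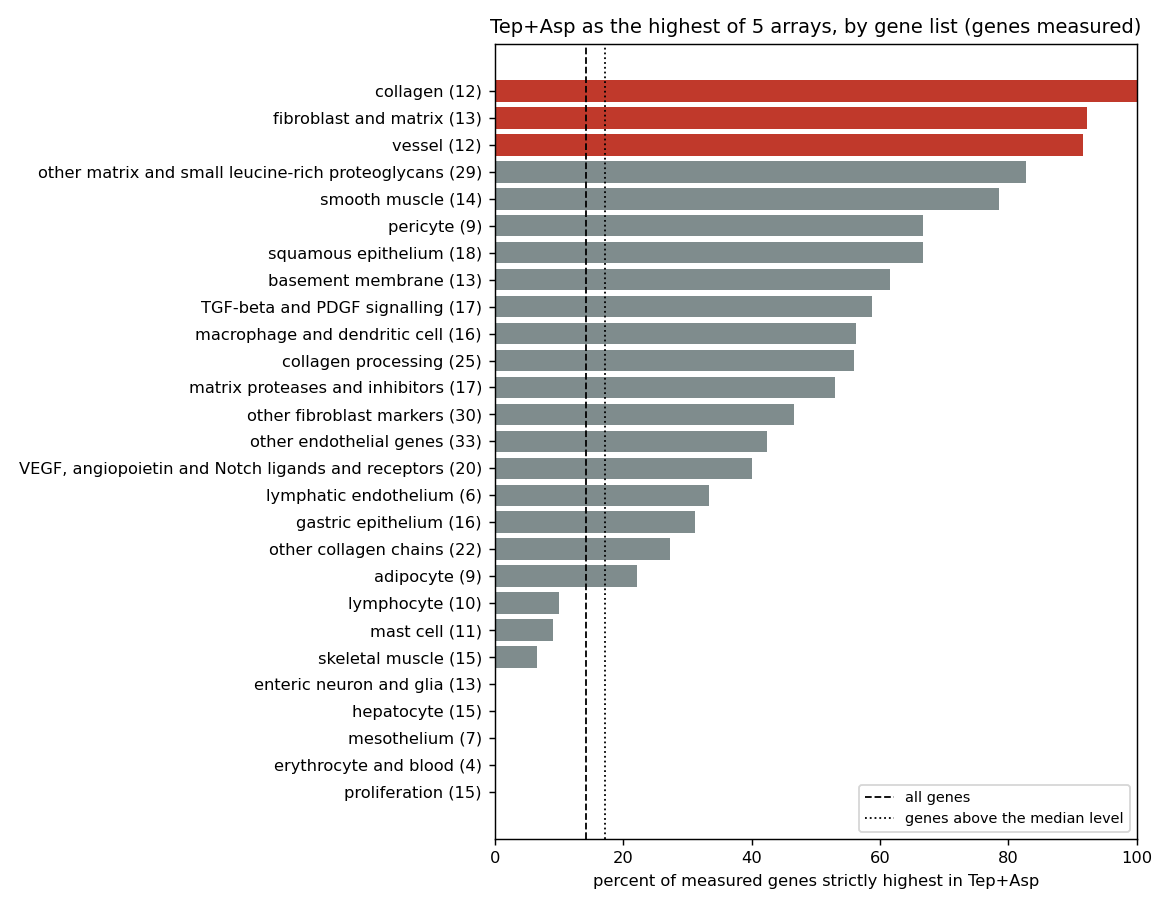
Percent of the measured genes of each list that were strictly highest in Tep+Asp among the 5 arrays (bars), with the number measured in brackets. Red bars are the 3 groups described here. Grey bars are the lists written by function with earlier results of these arrays known. The lines mark 14.3% for all genes and 17.2% for genes above the median level, and the 3 red bars reach 100%, 92.3% and 91.7%.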

How the data were processed

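Total RNA of gut from 5 groups of mice, 1 array each, had been hybridised to Affymetrix Mouse Gene 1.0 ST arrays. The deposited values are log2 expression values made by RMA in Expression Console, per the labels; the series' design text names the Exon Array Computational Tool. The log2 scale was inferred from the values, which ran from 1.32 to 13.87. No version of the software and no build is named in the labels.

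Platform annotation gave 1 gene symbol to 21789 probe sets, several to 1621 and none to 12147. Where a gene had more than 1 probe set, that of the highest mean was kept; each measured member had 1. Differences of log2 values were taken between arrays with Python 3.11.15 and pandas 2.3.3, without a test, and counted at 0.2. Counting was tested on simulated data. RefSeq GRCm38.p6 tables gave neighbours and promoters. The 24 further lists held 408 symbols, of which 384 were measured; those naming another cell type or layer also hold genes that several cells express.

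The members, lists and thresholds were chosen with earlier results of these data known. Values on each array are given, per group, for the 4 largest and 2 smallest differences between Tep+Asp and GA+Asp and the 2 widest ranges of the other arrays. Up to 3 genes per matrix or vessel list and 2 per other list were named among genes above the median level. They had the largest difference from the mean of the other arrays, except Krt1, named after its values were seen. In the lists with few or no genes highest in Tep+Asp, and in gastric epithelium, no gene was named. Alternatives were the mean of probe sets, cyclic loess (limma 3.58.1, 3 iterations), quantile normalization, the level filter, means for medians and other thresholds.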

Additional observations from a re-analysis of the deposited data

Results flagged for a closer look

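Col4a2, a basement membrane collagen chain, was picked out because its aspirin difference had the opposite sign with and without LG21. GA+Asp minus GA+GA was -0.0593, and LG21+Asp minus LG21+GA was 0.0619. Both differences are small, there was 1 array in each group, and the difference between them was not tested.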

How the results depend on the processing

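Group medians under cyclic loess, quantile normalization and the mean over genes lay within 0.05 of the values reported in all 10 pairs of arrays, and none with a size of at least 0.1 changed sign. The mean of probe sets and the level filter could not change them or the counts, because each measured gene had 1 probe set and all lay above the filter. The collagen median for Tep+Asp minus GA+Asp ran from 0.15 to 0.18. Counts moved with the threshold. For pairs of arrays the share of all genes was not taken at 0.1 or 0.3, so nothing is read from the counts there. At 0.1 the members apart from Tep+Asp numbered 26 for GA+GA, 25 for LG21+GA, 24 for GA+Asp and 25 for LG21+Asp, and at 0.3 they numbered 2, 0, 1 and 1. At 0.1 pairs without Tep+Asp gave 4 (LG21+GA and GA+GA), 3 (GA+Asp and GA+GA), 2 (GA+Asp and LG21+GA), 4 (LG21+Asp and GA+GA), 4 (LG21+Asp and LG21+GA) and 3 (LG21+Asp and GA+Asp), and at 0.3 GA+Asp and GA+GA gave 0. Tep+Asp was at least 0.1 above each other array in 22 of the 35 genes where it was highest, and so it was in 2.86% of all genes. Under cyclic loess and under quantile normalization Tep+Asp was highest in 34 of 37, since Pdgfrb joined Thy1 and Vwf. No paired analysis was possible because each group has 1 array, and for the same reason no replicate could be left out. Differences this small have no error estimate, and high-level probe sets lie near the top of the scale.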
